A study of Homo sapiens with 6 samples.

Results

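The hepatocyte transcription factors described here are HNF4A, HNF4G, FOXA1, FOXA2, FOXA3, ONECUT1, CEBPA and PROX1, 8 DNA-binding proteins chosen by gene symbol, and all 8 were found among the 60623 genes of the expression table. RNA-seq measured them in 6 libraries of cells labelled Huh7, a line from a human hepatocellular carcinoma. In 3 libraries the splicing regulator SRSF10 had been knocked down, with a hairpin going by the series title, and the 3 control libraries have titles starting with NC and WT as their genotype. The labels name no treatment, no control hairpin in the NC samples and no clone, so what hairpin delivery alone does and what lower SRSF10 does cannot be told apart. Separate cultures are not stated either, and the p-values cover the spread among these libraries, which could be technical.

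Hepatocyte identity is held by a network of transcription factors that bind each other's promoters and, jointly, the control regions of genes for plasma proteins, lipoproteins and metabolic enzymes. FOXA proteins open chromatin early in liver development, HNF4A is the central nuclear receptor of the mature hepatocyte, CEBPA drives metabolic genes and restrains division, and ONECUT1 and PROX1 act in the growth and fate choice of the liver bud. HNF4G, the close relative of HNF4A, is best known from the intestine. The questions were which of these factors the cells expressed and how their levels differed when SRSF10 was lowered.

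Promoter sequences are shown for HNF4A, because its transcripts start at an upstream and a downstream promoter whose use differs between tissues, and for CEBPA, the factor that was lower in the knockdown. The downstream HNF4A promoter is the main one in adult hepatocytes, and the upstream one is used in embryonic liver, pancreas and gut. RefSeq promoter windows on GRCh38.p14, from 250 bases before to 50 bases after the annotated start, were found for 5 of the 8 factors. Capitals mark matches on either strand to ATTGAT, the core bound by ONECUT proteins, in HNF4A, and to TATAAA, the TATA box, in CEBPA.
HNF4A upstream, chr20:44355449-44355748, plus strand: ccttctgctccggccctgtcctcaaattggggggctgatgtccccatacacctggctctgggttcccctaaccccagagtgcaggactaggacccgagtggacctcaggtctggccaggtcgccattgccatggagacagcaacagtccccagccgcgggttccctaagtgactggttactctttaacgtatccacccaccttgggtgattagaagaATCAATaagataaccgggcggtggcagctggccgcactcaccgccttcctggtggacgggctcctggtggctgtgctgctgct
HNF4A downstream, chr20:44400989-44401288, plus strand: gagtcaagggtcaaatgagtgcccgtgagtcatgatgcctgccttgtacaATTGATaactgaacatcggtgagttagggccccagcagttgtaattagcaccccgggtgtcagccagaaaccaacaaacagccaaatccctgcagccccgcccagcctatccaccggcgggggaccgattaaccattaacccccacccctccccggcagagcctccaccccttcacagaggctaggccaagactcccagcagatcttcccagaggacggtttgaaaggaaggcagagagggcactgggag
CEBPA, chr19:33302485-33302784, minus strand: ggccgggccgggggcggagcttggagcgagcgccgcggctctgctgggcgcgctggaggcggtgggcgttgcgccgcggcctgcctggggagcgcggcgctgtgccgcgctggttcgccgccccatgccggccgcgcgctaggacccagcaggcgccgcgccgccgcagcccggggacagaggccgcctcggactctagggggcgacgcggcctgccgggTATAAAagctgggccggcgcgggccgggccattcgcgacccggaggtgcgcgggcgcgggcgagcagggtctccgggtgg

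ATTGAT occurs once in each HNF4A window, from -33 to -28 relative to the start in the upstream and from -200 to -195 in the downstream one. The CEBPA window, with a GC content of 80.7%, has TATAAA from -30 to -25, as does that of FOXA3. Of all 35116 windows in the table, 6.26% hold ATTGAT and 11.5% TATAAA on either strand. None of the 6 windows of these factors holds TGTTTAC (forkhead, in 3.42% of all windows), TTNNGCAA (C/EBP, in 10.5%) or CAAAGTCCA (HNF4, in 0.384%). Matches to different motifs did not overlap, and they only describe the letters of these windows. The deposited values are FPKM per gene (fragments scaled to gene length and library size), which add up the transcripts of both HNF4A promoters, so the use of each was not measured.

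The estimated depth was 12690000 to 14340000 fragments per library. SRSF10 itself was at 10.6, 10.8 and 10.6 FPKM in the knockdown and at 18.6, 19.5 and 19.8 FPKM in the controls, with a mean 44.8% lower in the knockdown (limma adjusted p = 0.000166). Of the 12191 genes with at least 1 FPKM in at least 3 libraries, which are 20.1% of all genes and 51.5% of protein-coding genes, 25.2% passed an adjusted p of 0.05 (limma with Benjamini-Hochberg adjustment). By that test 12.6% of them rose with the knockdown and 12.5% fell, and the median log2 fold change of all tested genes was -0.01. Fold changes are differences of mean log2(FPKM + 1), which understates the change of low genes.

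The cells expressed 6 of the 8 factors above that filter, and of these 1 rose and 1 fell in the knockdown, beside 25.2% called among all tested genes. HNF4G, a nuclear receptor, had the highest mean FPKM in both groups, though it overlapped with CEBPA in the controls. It rose to 1.24 times its control mean. CEBPA, a leucine zipper protein, fell, with a mean 31.5% lower, but its call was close to the threshold (limma adjusted p = 0.0458) and several alternatives lost it. FOXA1, FOXA2, HNF4A and PROX1 did not pass the test, and FOXA3 and ONECUT1 were under 1 FPKM in every library. The summed FPKM of the 8 factors was 38.8, 38.7 and 40.5 in the knockdown and 40.6, 39.96 and 40.9 in the controls, so the totals overlapped. The median log2 fold change of the 6 tested factors was -0.02.

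**Figure D1:**
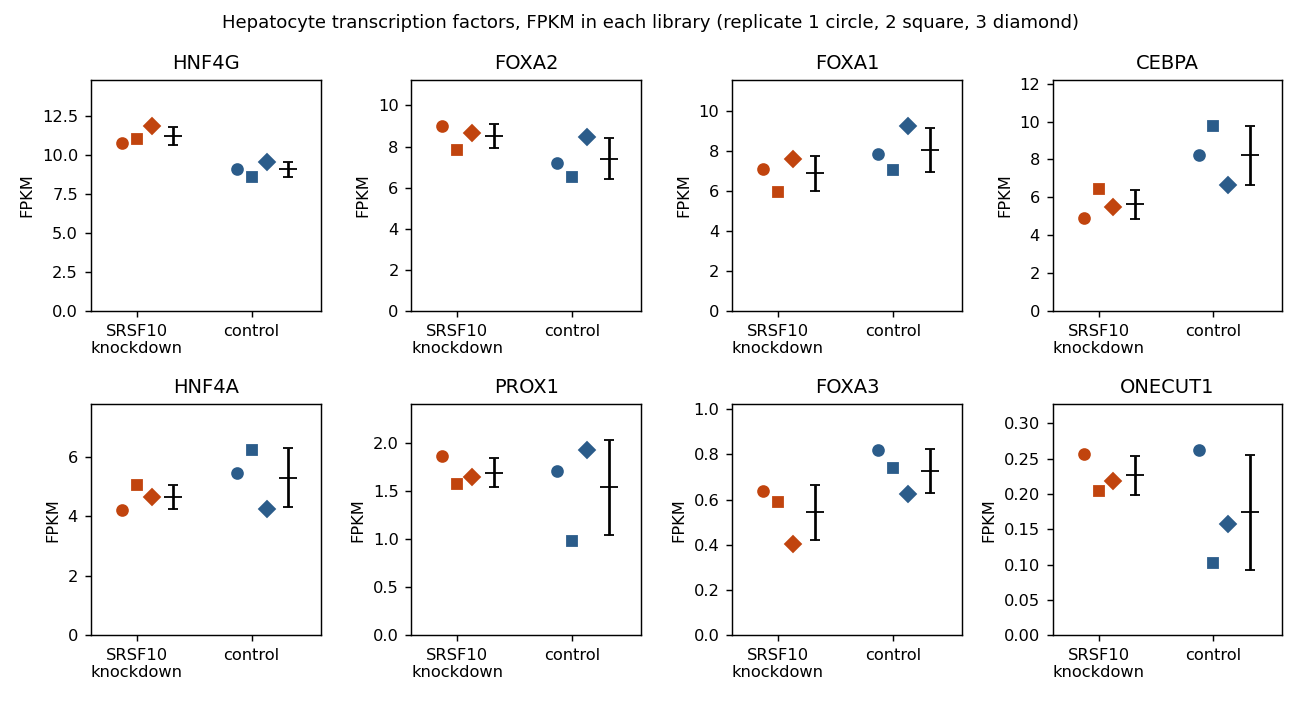
FPKM of each of the 8 factors in each library, with the SRSF10 knockdown on the left and the control on the right of each panel. Symbols are the 3 replicates and bars the mean ± SD (n = 3). The groups are apart for HNF4G, at 10.7 to 11.8 FPKM in the knockdown and 8.56 to 9.56 FPKM in the controls, and for CEBPA, and they overlap for the other factors.

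HNF4G (ENSG00000164749, on the plus strand of GRCh38 chromosome 8, 75407914 to 75566843) was at 10.7, 11.01 and 11.8 FPKM in the knockdown and at 9.06, 8.56 and 9.56 FPKM in the controls. Every knockdown library was above every control. The means were 11.2 ± 0.571 FPKM in the knockdown and 9.06 ± 0.499 FPKM in the controls (SD, n = 3 each), and the log2 fold change was 0.28 (SE 0.0552, 95% interval 0.15 to 0.41, limma adjusted p = 0.0125). An exact two-sided permutation test over the 6 libraries gave p = 0.1, the smallest that 3 against 3 can reach. The call was kept under all 12 alternatives, with limma adjusted p of at most 0.0446. Groups that do not overlap were common, at 42.7% of tested genes, 20.6% higher and 22.0% lower in the knockdown.

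HNF4A (ENSG00000101076, on the plus strand of GRCh38 chromosome 20, 44355700 to 44434596), on which many hepatocyte genes depend, was at 4.23, 5.06 and 4.66 FPKM in the knockdown and at 5.44, 6.22 and 4.25 FPKM in the controls. The lowest control, replicate 3, lay among the knockdown values, so the groups overlapped. The means were 4.65 ± 0.417 FPKM in the knockdown and 5.3 ± 0.991 FPKM in the controls (SD, n = 3 each). The log2 fold change was -0.15 with a 95% interval of -0.43 to 0.14 (limma adjusted p = 0.419), an interval that runs from 0.741 to 1.1 times the control on the FPKM + 1 scale. An estimated 431 to 502 fragments per knockdown library and 420 to 577 per control library stood behind these values.

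The FOXA factors are winged-helix proteins that bind DNA in closed chromatin. FOXA1 (ENSG00000129514, on the minus strand of GRCh38 chromosome 14, 37589984 to 37596059) was at 7.12, 5.94 and 7.61 FPKM in the knockdown and at 7.88, 7.06 and 9.27 FPKM in the controls. FOXA2 (ENSG00000125798, on the minus strand of GRCh38 chromosome 20, 22581005 to 22585455) was at 8.999, 7.84 and 8.66 FPKM in the knockdown and at 7.19, 6.53 and 8.48 FPKM in the controls. Both overlapped between the groups. Their log2 fold changes had opposite signs, -0.20 for FOXA1 (SE 0.111, 95% interval -0.46 to 0.06, limma adjusted p = 0.242) and 0.18 for FOXA2 (SE 0.0918, 95% interval -0.03 to 0.40, limma adjusted p = 0.197). FOXA2 passed the threshold when control replicate 3 was left out (log2 fold change 0.27, limma adjusted p = 0.0452).

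FOXA3 (ENSG00000170608, on the plus strand of GRCh38 chromosome 19, 45863989 to 45873797), a FOXA protein tied to glucose balance in fasted mice, was at 0.638, 0.587 and 0.405 FPKM in the knockdown and at 0.818, 0.74 and 0.625 FPKM in the controls. These values rest on an estimated 11 to 19 fragments per knockdown library and 19 to 26 per control library, and the groups overlapped. FOXA3 was under the filter, and in the fit with no filter its log2 fold change was -0.16 (limma adjusted p = 0.518). Counting error alone would give a coefficient of variation of 24.9% in the knockdown, where 22.6% was observed.

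Within each library the balance of FOXA2 and FOXA1 lay on different sides of 1 in the 2 groups. FOXA2 over FOXA1 was 1.26, 1.32 and 1.14 in the knockdown and 0.912, 0.925 and 0.915 in the controls. FOXA2 was the higher gene in every knockdown library and the lower in every control. The log2 ratio differed by 0.43 (exact two-sided permutation p = 0.1, the least this design allows), whereas the sum of both genes was 15.4 ± 1.39 FPKM in the knockdown and 15.5 ± 2.11 FPKM in the controls (SD, n = 3 each). HNF4G over HNF4A was 2.54, 2.17 and 2.54 in the knockdown and 1.67, 1.38 and 2.25 in the controls, with an overlap (exact two-sided permutation p = 0.2). Their sum was 15.8 ± 0.789 FPKM in the knockdown and 14.4 ± 0.49996 FPKM in the controls, with no overlap (SD, n = 3 each, exact two-sided permutation p = 0.1). HNF4G was the higher gene in all 6 libraries. All ratios were chosen after the values were seen.

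**Figure D2:**
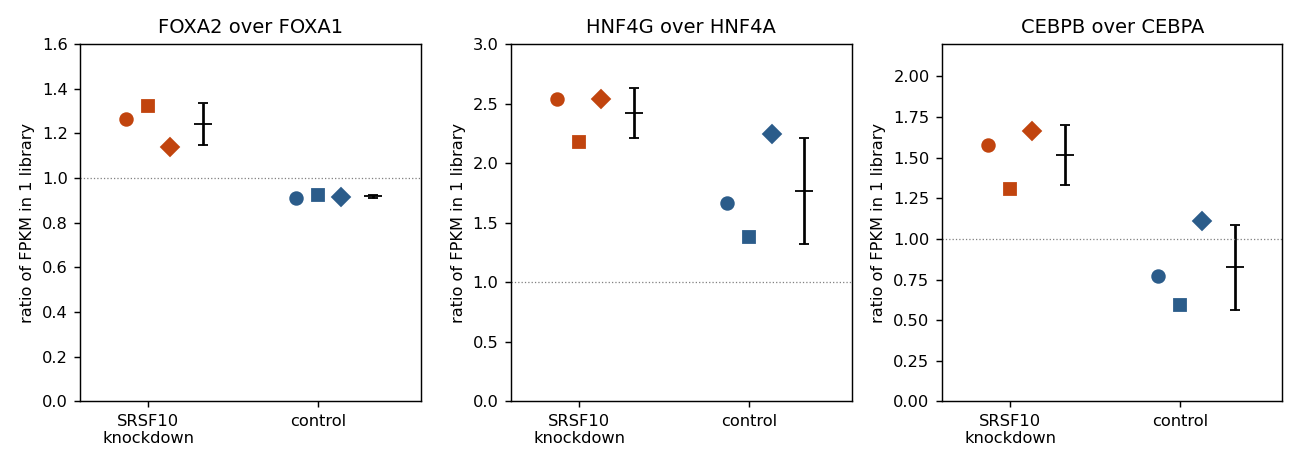
Ratio of the FPKM of related factors within each library, with the SRSF10 knockdown left of the control in each panel. Symbols are the 3 replicates and bars the mean ± SD (n = 3). FOXA2 over FOXA1 lies above 1 in the 3 knockdown libraries and below 1 in the 3 controls, CEBPB over CEBPA is also apart, and HNF4G over HNF4A overlaps.

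CEBPA (ENSG00000245848, on the minus strand of GRCh38 chromosome 19, 33299934 to 33302564) was at 4.91, 6.47 and 5.51 FPKM in the knockdown and at 8.23, 9.77 and 6.67 FPKM in the controls. The groups did not overlap, but the highest knockdown value, replicate 2, was close to the lowest control, replicate 3. Among tested genes 42.7% did not overlap, 22.0% with lower values in the knockdown. The means were 5.63 ± 0.783 FPKM in the knockdown and 8.22 ± 1.55 FPKM in the controls (SD, n = 3 each). The log2 fold change was -0.47 (SE 0.136, 95% interval -0.79 to -0.15, limma adjusted p = 0.0458). The exact two-sided permutation p was 0.1, the smallest this design allows. The direction held under all 12 alternatives, but the call was lost under 6 of them. The limma adjusted p was 0.128 without knockdown replicate 1, 0.117 without knockdown replicate 3, 0.113 without control replicate 1, 0.104 without control replicate 2, 0.143 with no filter and 0.0615 with no trend in limma.

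CEBPB, the relative of CEBPA that acts in the acute phase response and in regeneration, rose to 8.46 ± 0.693 FPKM in the knockdown, against 6.52 ± 0.798 FPKM in the controls (SD, n = 3 each, log2 fold change 0.33, limma adjusted p = 0.0348). CEBPB over CEBPA within a library was 1.58, 1.31 and 1.66 in the knockdown and 0.771, 0.596 and 1.11 in the controls, with no overlap (exact two-sided permutation p = 0.1). The sum of both was 14.1 ± 1.23 FPKM in the knockdown and 14.7 ± 0.776 FPKM in the controls. The CEBPB call was lost, in limma adjusted p, without knockdown replicate 2 (0.0908) or 3 (0.107), without control replicate 1 (0.0949) or 2 (0.0853) and with no filter (0.107).

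PROX1 (ENSG00000117707, on the plus strand of GRCh38 chromosome 1, 213983181 to 214041502), a homeobox protein that mouse liver cells need to migrate out of the liver bud, was at 1.86, 1.57 and 1.65 FPKM in the knockdown and at 1.71, 0.986 and 1.92 FPKM in the controls. Control replicate 2 was the lowest of the 6 libraries and the only one under 1 FPKM. The log2 fold change was 0.10 (SE 0.151, 95% interval -0.26 to 0.46, limma adjusted p = 0.669), and without control replicate 2 it was -0.07 (limma adjusted p = 0.661). PROX1 also marks lymphatic endothelium. Of 10 markers of that cell type, PROX1 included, 3 were tested and 2 rose, where 25.2% of all tested genes were called. The summed level of the 10 was 11.4 to 13.004 FPKM in the knockdown and 8.02 to 8.84 FPKM in the controls. PECAM1, an adhesion molecule of endothelium and blood cells, rose to 6.85 ± 0.568 FPKM in the knockdown, against 5.28 ± 0.617 FPKM in the controls (SD, n = 3 each, limma adjusted p = 0.0373), a call lost under 5 of 12 alternatives. KDR, a receptor of vascular endothelial growth factor, rose to 3.09 ± 0.428 FPKM in the knockdown, against 0.502 ± 0.273 FPKM in the controls (limma adjusted p = 0.00115) and reached the filter in knockdown libraries alone. LYVE1, on the same list but not tested, went the other way. It was at 0.345, 0.272 and 0.2 FPKM in the knockdown and at 1.01, 1.05 and 0.693 FPKM in the controls, with no overlap. CCL21 and TIE1 were listed at 0 in every library. The part of such cells in the PROX1 values was not tested.

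ONECUT1 (ENSG00000169856, on the minus strand of GRCh38 chromosome 15, 52756989 to 52791078), also called HNF6, was the scarcest factor, at 0.257, 0.204 and 0.218 FPKM in the knockdown and at 0.262, 0.103 and 0.157 FPKM in the controls. The estimated fragments numbered 11 to 14 per knockdown library and 5 to 14 per control library. The groups overlapped, and in the fit with no filter the log2 fold change was 0.07 (limma adjusted p = 0.623), a value that rests on these few fragments. Its relatives ONECUT2, at 0.673, 0.604 and 0.549 FPKM in the knockdown and 0.878, 0.994 and 0.906 FPKM in the controls, and ONECUT3 were also under 1 FPKM in every library.

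The order of mean levels was HNF4G, FOXA2, FOXA1, CEBPA, HNF4A, PROX1, FOXA3 and ONECUT1 in the knockdown. In the controls it was HNF4G, CEBPA, FOXA1, FOXA2, HNF4A, PROX1, FOXA3 and ONECUT1. In the knockdown the values of HNF4G lay above those of FOXA2, and those of FOXA2 above FOXA1, while FOXA1 and CEBPA, and CEBPA and HNF4A, overlapped. In the controls HNF4G and CEBPA, CEBPA and FOXA1, and FOXA1 and FOXA2 overlapped, and FOXA2 lay above HNF4A. All steps from HNF4A down were apart in both groups. Among protein-coding genes HNF4G lay at percentile 82.1 in the knockdown and 78.4 in the controls, and CEBPA at percentile 70.1 in the knockdown and 76.7 in the controls.

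Several factors varied together among replicates of a group. Among the controls, replicate 2 had the highest HNF4A and CEBPA and the lowest FOXA1, FOXA2, HNF4G, PROX1 and ONECUT1, and replicate 3 had the lowest HNF4A and CEBPA and the highest FOXA1, FOXA2, HNF4G and PROX1. Among the knockdown libraries, replicate 2 had the highest HNF4A and CEBPA and the lowest FOXA1, FOXA2, PROX1 and ONECUT1. The coefficient of variation among controls was 18.7% for HNF4A, 18.8% for CEBPA and 31.95% for PROX1, where counting error alone would give 4.38% for HNF4A, 5.86% for CEBPA and 7.3% for PROX1. For HNF4G it was 5.5%, beside 4.12% from counting.

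**Figure D3:**
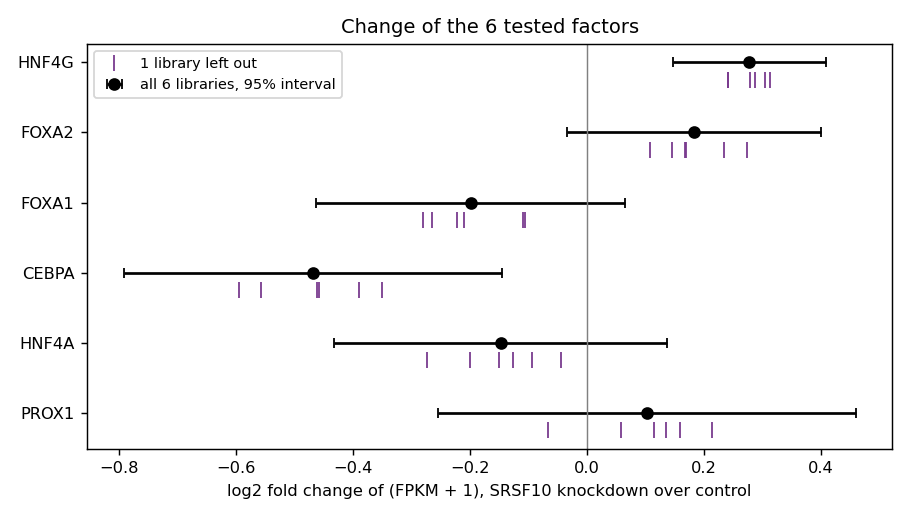
Log2 fold change of FPKM + 1, SRSF10 knockdown over control, for the 6 tested factors. Points are the fit to all 6 libraries with its 95% interval, and ticks are the fits with 1 library left out. HNF4G stays between 0.24 and 0.31 and CEBPA between -0.60 and -0.35, and PROX1 has ticks on both sides of 0.

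Genes whose log2(FPKM + 1) over the 6 libraries was most like that of a factor are given as a description with Pearson's r in parentheses, since the libraries share preparation, depth and the group difference. For HNF4G they were ZNF277 (0.999), TEC (0.997) and SEC24A (0.995), and 279 tested genes had r over 0.95. For CEBPA they were ATP13A3 (0.996), SAE1 (0.996) and DZIP1L (0.992), with 147 genes over 0.95. The genes most like FOXA2 were KATNAL2 (0.996), GRAMD1B (0.994) and GPCPD1 (0.989), and those most like FOXA1 were ZNF787 (0.989), ZNF48 (0.987) and EEFSEC (0.985). HNF4A was most like COPG2 (0.989), MPC2 (0.987) and RPL5 (0.986), and PROX1 most like SOX4 (0.987) and ITPRIP (0.982). None of these genes is another of the 8 factors.

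Most transcripts close to the factors were low. LINC00261, a long non-coding RNA within 10000 bases of FOXA2, was at 1.89, 1.28 and 1.68 FPKM in the knockdown and at 1.58, 0.934 and 1.69 FPKM in the controls. CEBPA-DT, a transcript near CEBPA on the other strand, was at 0.975, 1.1 and 0.89 FPKM in the knockdown and at 0.728, 0.859 and 0.705 FPKM in the controls. Each knockdown value of CEBPA-DT was above each control value, and those of CEBPA were below. CEBPA-DT did not reach the filter and was not tested. Its lowest knockdown value, 0.89 FPKM, was close to its highest control value, 0.859 FPKM. Groups without overlap made up 42.7% of tested genes. Exons of CEBPA overlap AC008738.3 and AC008738.5, both listed at 0, those of FOXA2 overlap AL121722.1, not analysed here, those of FOXA1 overlap TTC6, at 0.289 FPKM in the knockdown and 0.278 FPKM in the controls, and those of PROX1 overlap PROX1-AS1, at 0.0212 FPKM in the knockdown and 0.00929 FPKM in the controls. Without a stated strand setting, reads from a gene and its overlapping partner cannot be separated.

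Of 30 other liver-enriched transcription factors, 19 were tested (63.3%, beside 51.5% of protein-coding genes), 5 rose and 1 fell, and their median log2 fold change was 0.13. Among all tested genes 25.2% were called. CREB3L3, a regulator of triglyceride metabolism in liver and gut, rose to 5.36 ± 0.245 FPKM in the knockdown, against 2.68 ± 0.21 FPKM in the controls (SD, n = 3 each, log2 fold change 0.79, limma adjusted p = 0.000626). NR2F1, a nuclear receptor of the COUP-TF family, which can bind the same kind of element as HNF4A, rose to 3.19 ± 0.289 FPKM in the knockdown, against 1.42 ± 0.0364 FPKM in the controls (limma adjusted p = 0.000933). PPARA, the fatty acid receptor of the liver, rose to 3.07 ± 0.0851 FPKM in the knockdown, against 2.07 ± 0.16 FPKM in the controls (limma adjusted p = 0.00566). TBX3, a T-box factor of the early liver bud, fell to 4.07 ± 0.358 FPKM in the knockdown, against 6.43 ± 0.498 FPKM in the controls (log2 fold change -0.55, limma adjusted p = 0.00309). These 4 calls were kept under all 12 alternatives.

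GATA6, an endoderm factor, rose to 4.22 ± 0.274 FPKM in the knockdown, against 3.34 ± 0.21 FPKM in the controls (SD, n = 3 each, limma adjusted p = 0.0258). That call was lost, in limma adjusted p, without knockdown replicate 1 (0.0843) or 2 (0.0766), without control replicate 2 (0.0531) or 3 (0.0627) and with no filter (0.0719). HHEX, a homeobox factor of the liver bud, was at 19.9 ± 1.03 FPKM in the knockdown and 17.9 ± 1.29 FPKM in the controls (limma adjusted p = 0.13). Among nuclear receptors of bile acid and drug metabolism, NR1H4, the bile acid receptor, was at 1.47 ± 0.17 FPKM in the knockdown and 1.09 ± 0.264 FPKM in the controls (limma adjusted p = 0.176), and NR0B2, NR1I2 and NR1I3 were under 1 FPKM in every library.

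**Figure D4:**
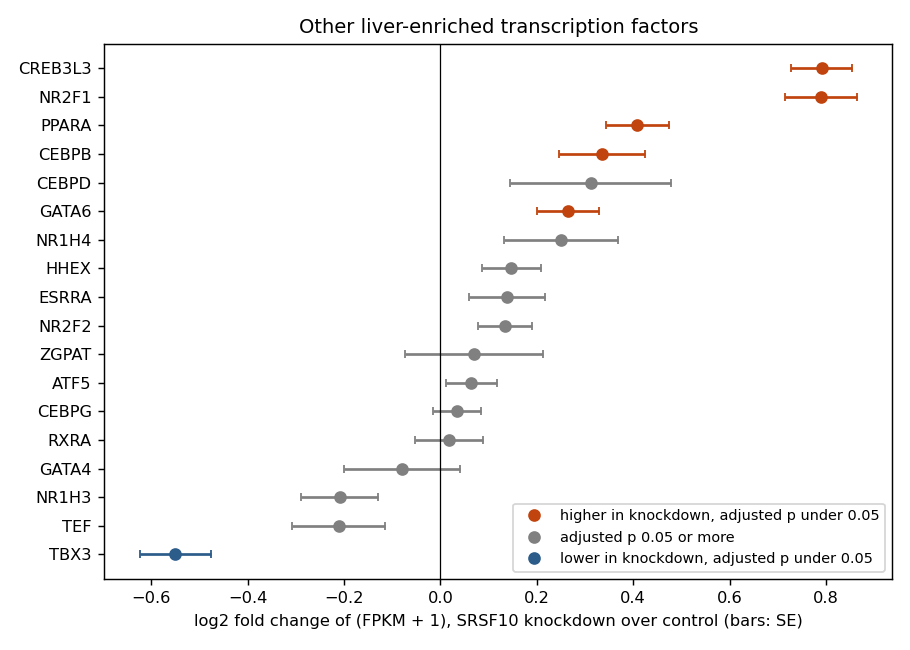
Log2 fold change of FPKM + 1, SRSF10 knockdown over control, with its SE, for tested genes among the other liver-enriched transcription factors. CREB3L3 and NR2F1 have the highest values (0.79 and 0.79) and TBX3 the lowest (-0.55) of those shown.

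Although HNF4A, FOXA1, FOXA2 and CEBPA were expressed, most genes on lists of their known targets were under 1 FPKM. Of 32 HNF4A target genes 5 were tested (15.6%, beside 51.5% of protein-coding genes), 1 rose and 1 fell. Among all tested genes 25.2% were called. Of the 32, 11 were listed at 0 in every library, TTR, APOA2, APOC3 and FABP1 among them. AGT, the angiotensinogen gene, was at 5.3, 5.1 and 6.36 FPKM in the knockdown and at 1.58, 1.38 and 2.16 FPKM in the controls. Every knockdown library was above every control (log2 fold change 1.29, SE 0.123, limma adjusted p = 0.000989). MTTP, which loads lipid onto apolipoprotein B, was at 2.41, 2.64 and 1.86 FPKM in the knockdown and at 3.93, 2.87 and 3.6 FPKM in the controls (log2 fold change -0.44, limma adjusted p = 0.0424). The MTTP call was lost under 8 of 12 alternatives, among them leaving out any library except control replicate 2, with limma adjusted p of up to 0.132. The median log2 fold change of the 5 was -0.11.

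Of 22 FOXA and ONECUT1 target genes 4 were tested, 3 rose and 0 fell, with a median log2 fold change of 0.70. Among all tested genes 25.2% were called and 12.6% rose, and 4 genes are too few to describe the list. IGFBP1, a secreted binder of insulin-like growth factors, was at 4.7, 5.14 and 4.53 FPKM in the knockdown and at 1.06, 1.2 and 0.674 FPKM in the controls (log2 fold change 1.56, SE 0.112, limma adjusted p = 0.000457). TDO2, which opens the ring of tryptophan, was at 11.6, 13.6 and 10.4 FPKM in the knockdown and at 5.38, 5.07 and 4.12 FPKM in the controls (log2 fold change 1.13, limma adjusted p = 0.00114). For both genes every knockdown library was above every control, and both calls were kept under all 12 alternatives, as was that of AGT. AGR2, a disulfide isomerase of secretory epithelia, rose to 58.9 ± 4.32 FPKM in the knockdown, against 48.97 ± 1.82 FPKM in the controls (SD, n = 3 each, limma adjusted p = 0.0186). The AGR2 call was lost, in limma adjusted p, without knockdown replicate 1 (0.0534), control replicate 1 (0.0611) or control replicate 2 (0.0545) and with no filter (0.061). UGT1A1, whose reads are uncertain because it shares exons with other UGT1A genes, was at 7.63 ± 0.564 FPKM in the knockdown and 8.86 ± 1.35 FPKM in the controls (limma adjusted p = 0.234).

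Of 22 CEBPA target genes 2 were tested, with a median log2 fold change of 0.65: AGT, which rose, and UGT2B7, an enzyme with close copies among the UGT2B genes and so with uncertain reads, at 15.1 ± 1.03 FPKM in the knockdown and 14.96 ± 1.2 FPKM in the controls (SD, n = 3 each, limma adjusted p = 0.938). Another 5 were listed at 0 in every library, OTC, PCK1 and F9 among them. Of protein-coding genes 51.5% were tested, and 25.2% of all tested genes were called. ALB, the albumin gene and a classical target of FOXA and C/EBP proteins, was at 0.624, 0.814 and 0.434 FPKM in the knockdown and at 0.162, 0.115 and 0.172 FPKM in the controls. All its values were under the filter, and each knockdown value was above each control value. Other genes of this list under the filter went both ways without overlap, beside 42.7% of tested genes that did not overlap. Higher were SERPINA1, ASS1, CYP2D6 and GYS2, with SERPINA1 means of 0.623 FPKM in the knockdown and 0.106 FPKM in the controls. APOB was lower, at 0.386 FPKM in the knockdown and 0.593 FPKM in the controls. HAMP was also lower, at 0.025, 0.077 and 0.0274 FPKM in the knockdown and 0.146, 0.11 and 0.0774 FPKM in the controls. Its values and those of GYS2 were very low, and the HAMP groups nearly touched.

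Among 26 cofactors and regulators of these factors, 23 were tested, 5 rose and 1 fell, and the median log2 fold change was 0.01. That share of calls is close to the 25.2% called among all tested genes. SMAD3, which carries transforming growth factor beta signals to chromatin, rose to 46.8 ± 0.646 FPKM in the knockdown, against 39.7 ± 0.866 FPKM in the controls (SD, n = 3 each, limma adjusted p = 0.00334). TLE1 and TLE3, corepressors of the Groucho family, both rose, TLE1 to 21.3 ± 0.64 FPKM in the knockdown, against 17.04 ± 1.02 FPKM in the controls (limma adjusted p = 0.00648), and TLE3 to 5.78 ± 0.159 FPKM in the knockdown, against 4.66 ± 0.288 FPKM in the controls (limma adjusted p = 0.0141). The TLE3 call was lost without knockdown replicate 2 (limma adjusted p = 0.0541). MED1, the Mediator subunit that nuclear receptors contact, fell to 13.2 ± 0.238 FPKM in the knockdown, against 16.2 ± 1.09 FPKM in the controls (limma adjusted p = 0.011). TRIB1, which directs the degradation of CEBPA protein, was at 48.9 ± 3.2 FPKM in the knockdown and 57.2 ± 8.83 FPKM in the controls (limma adjusted p = 0.204), and its relative TRIB2 was listed at 0.

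Against the label of a liver line, 21 of 24 hepatocyte markers were under 1 FPKM in all 6 libraries, and TTR, APOA2, APOC3 and GPC3 were listed at 0 throughout. The 3 above the filter did not pass the test. APOH, a plasma glycoprotein, was at 27.8 ± 0.885 FPKM in the knockdown and 25.4 ± 1.61 FPKM in the controls (SD, n = 3 each, limma adjusted p = 0.127). FGB, the fibrinogen beta chain, was at 5.12 ± 0.366 FPKM in the knockdown and 5.13 ± 0.0866 FPKM in the controls, and FGA, the alpha chain, at 1.66 ± 0.106 FPKM in the knockdown and 1.92 ± 0.101 FPKM in the controls. AFP, the fetal counterpart of albumin, was at 0.892, 0.872 and 0.88 FPKM in the knockdown and at 0.826, 0.958 and 0.669 FPKM in the controls. The summed level of the list was 37.1 to 39.2 FPKM in the knockdown and 33.7 to 37.2 FPKM in the controls.

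Of 12 markers of intestinal epithelium, HNF4G among them, 6 were tested, 2 rose and 1 fell, where 25.2% of all tested genes were called. Their median log2 fold change was -0.04. The summed level was 487 to 511 FPKM in the knockdown and 365 to 398 FPKM in the controls, and KRT20 alone made up most of it in every library. KRT20, a keratin of gut and urothelium, was at 437, 409 and 414 FPKM in the knockdown and at 271, 279 and 318 FPKM in the controls and rose (log2 fold change 0.54, limma adjusted p = 0.00213). VIL1, the microvillus protein villin, fell to 6.72 ± 0.586 FPKM in the knockdown, against 10.2 ± 1.06 FPKM in the controls (SD, n = 3 each, limma adjusted p = 0.00533). The cadherin CDH17 was at 55.2 ± 2.02 FPKM in the knockdown and 68.02 ± 9.24 FPKM in the controls (limma adjusted p = 0.0688). CDX2, a regulator of intestinal identity, was at 1.09 ± 0.233 FPKM in the knockdown and 1.54 ± 0.357 FPKM in the controls (limma adjusted p = 0.185), and CDX1 and ISX were listed at 0. The part of other cells or of a changed cell state in the levels of HNF4G and CEBPA was not tested, and in bulk samples fewer cells of a type and less RNA per cell cannot be told apart.

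**Figure D5:**
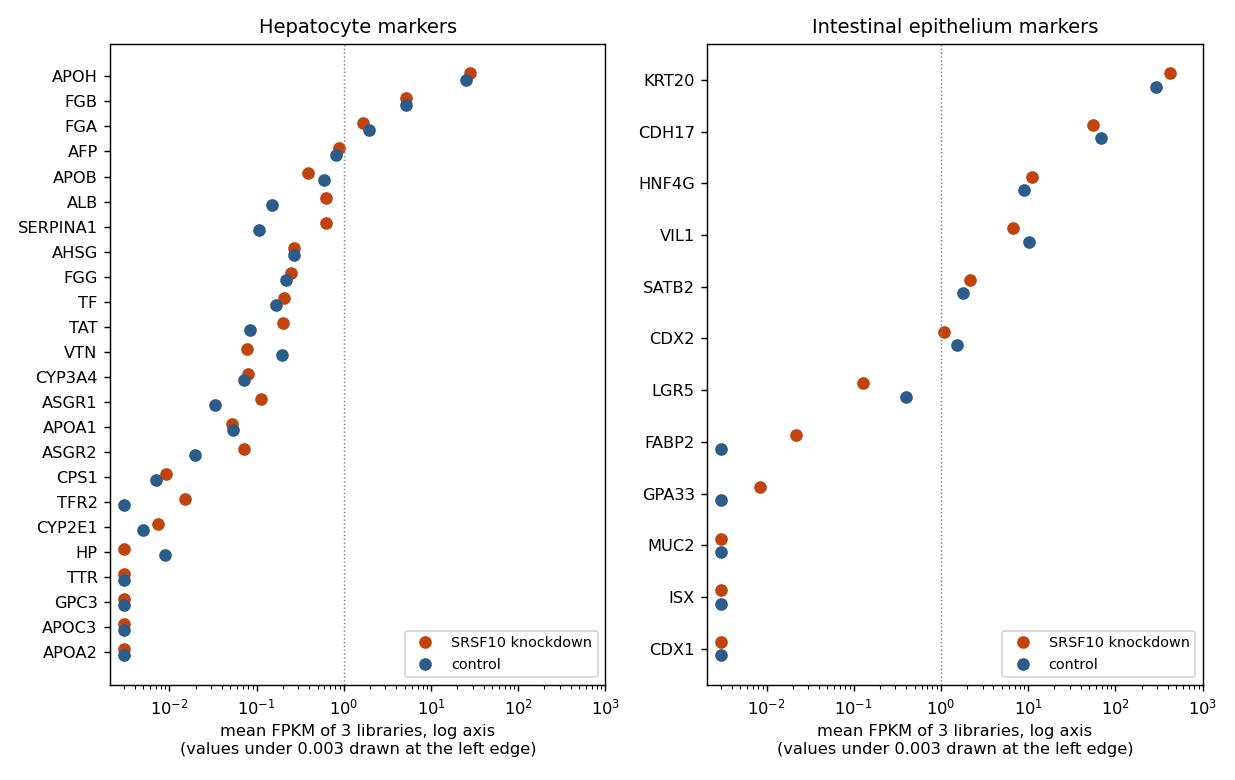
Mean FPKM of 3 libraries on a log axis for the hepatocyte markers (left panel) and the intestinal epithelium markers (right panel), with the SRSF10 knockdown above the control in each row. The dotted line is 1 FPKM. APOH, FGB and FGA are the hepatocyte markers past the line, whereas KRT20 lies at 420.2 FPKM in the knockdown and 289 FPKM in the controls.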

How the data were processed

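RNA-seq libraries of 3 SRSF10 knockdown and 3 control samples were grouped by their labels. The authors deposited FPKM values both per sample and as a series table, with the same 60623 values for every sample. FastQC 0.11.9, Trim Galore 0.6.5-1 and the build GRCh38 are named, per the submitters' processing notes. Aligner, counter, annotation and strand: not given in the sources used here. FPKM are not counts, so no count test was run.

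Log2(FPKM + 1) of the 12191 genes with at least 1 FPKM in at least 3 libraries was fitted in limma 3.58.1 (R 4.3.3) with group as the only term and a mean-variance trend. P-values were adjusted by Benjamini-Hochberg over all of them, with a threshold of 0.05. The fit was tested on simulated data. Exact permutation tests used SciPy 1.17.1. The 8 factors and the gene lists were chosen with earlier results of these data known. The genes named are the factors, up to 4 genes of a list with the smallest adjusted p or, for markers, the highest mean, any needed to show the other direction, markers at 0, and the 3 genes most like each tested factor. HHEX, NR1H4, ONECUT2, ONECUT3, ALB, SERPINA1, ASS1, CYP2D6, GYS2, APOB, HAMP and AFP were chosen after their values were seen. So were LYVE1, CDX2, TRIB1, the neighbouring transcripts and other genes named as low or at 0. Some genes that this rule names are not reported here, though counts and medians of lists include them.

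Depth was estimated from the steps between low FPKM, with GENCODE 29 exon lengths. At that depth 81.5% to 82.8% of the values below 6.5 fragments lay within 0.05 of a whole number. The estimates for FOXA3 and ONECUT1 lay up to 0.494 and 0.45 from a whole number, so their fragment numbers are approximate. The estimated depth describes precision only, as counting error. Alternatives were no filter, a pseudocount of 0.1, median-of-ratios scaling, rescaling without mitochondrially encoded genes (27.5% to 29.7% of summed FPKM), no trend, the replicate number as a block, and each library left out with the same genes tested.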

Additional observations from a re-analysis of the deposited data

How the results depend on the processing

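HNF4G and SRSF10 kept their call and direction under all 12 alternatives. CEBPA lost its call, at the same log2 fold change of -0.47, with no filter and with no trend. With 1 library left out its value was -0.60 to -0.35, that of FOXA2 0.11 to 0.27, and that of PROX1 ran from -0.0661, a reversal without control replicate 2, to 0.21. With a pseudocount of 0.1 the values of FOXA3 and ONECUT1 were -0.37 and 0.29. Genes called higher numbered 1542, and 986 to 1344 with 1 library left out, the fewest without knockdown replicate 3. Genes called lower numbered 1525, 975 to 1335 with 1 library left out (997 without knockdown replicate 2 and 975 without replicate 3) and 1013 with no filter. Leaving out a library also lowers the number of samples, and dropping the filter raises the number of genes. The causes of the changed counts were not tested. Of 32 called genes on the lists besides the factors, 23 kept their call under all 12 alternatives.

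Whether replicate numbers pair the samples was not settled. Deviations from the group means of same-numbered libraries correlated at 0.0156, 0.057 and -0.0715, across genes that are not independent replicates. Knockdown replicate 1 correlated best with control replicate 3. Deviations sum to 0 within each group of 3, so these correlations are tied to each other and cannot decide the question. The replicate block gave a smaller SE for FOXA1 (0.0508, beside 0.111 without it) and CEBPA (0.0892, beside 0.136). For SRSF10 the SE was larger (0.043, beside 0.0379). With the replicate number as a block, 1193 genes were higher and 1146 lower, and HNF4G (0.28, limma adjusted p = 0.0197) and CEBPA (-0.47, limma adjusted p = 0.0266) were called. FOXA3 and ONECUT1 were under the filter and rest on few estimated fragments per library.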

Other observations

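Other marker lists were read as values, and their calls stand beside 25.2% called among all tested genes. Of 14 cholangiocyte and progenitor markers 7 were tested, 3 rose and 2 fell. SPP1, a secreted phosphoprotein, rose to 353 ± 14.2 FPKM in the knockdown, against 252 ± 16.9 FPKM in the controls, and SOX9, a ductal factor, to 4.34 ± 0.807 FPKM in the knockdown, against 1.32 ± 0.55 FPKM in the controls (SD, n = 3 each). CD24 rose and met the filter through knockdown libraries alone. KRT7 fell to 1.14 ± 0.227 FPKM in the knockdown, against 3.16 ± 0.656 FPKM in the controls, and MUC1 to 1.41 ± 0.103 FPKM in the knockdown, against 2.13 ± 0.145 FPKM in the controls. KRT19 was at 84.2 ± 5.02 FPKM in the knockdown and 91.2 ± 1.77 FPKM in the controls (limma adjusted p = 0.13).

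Of 12 lung markers 0 were tested. Of 12 breast and urothelial markers 5 were tested, 1 rose and 2 fell. PPARG, a nuclear receptor of fat and urothelium, fell to 17.6 ± 0.323 FPKM in the knockdown, against 22.9 ± 1.28 FPKM in the controls (limma adjusted p = 0.00286), and KRT20 rose. GATA3 fell (limma adjusted p = 0.0174) and met the filter through the controls alone, and its call was lost under 5 of 12 alternatives, with limma adjusted p of up to 0.0611. Of 10 squamous markers 2 were tested and 0 called. Of 12 pancreas and stomach markers 2 were tested, and both, TFF2 and MUC5AC, rose and met the filter through knockdown libraries alone. Of 10 kidney and gynaecological tract markers 1 was tested and 0 called. Of 10 lymphatic endothelial markers 3 were tested, and PECAM1 and KDR rose, while LYVE1, not tested, was lower, as given with PROX1. Of 12 fibroblast markers 1 was tested, LUM, a matrix proteoglycan, which rose to 9.5 ± 0.666 FPKM in the knockdown, against 4.4 ± 0.615 FPKM in the controls. Of 10 blood cell markers 1 was tested, ITGAM, which rose (limma adjusted p = 0.0415) and lost its call under 8 of 12 alternatives.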
